A study of Zea mays with 33 samples.

Results

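The genes described here are the abundant maize gene models whose reads were found almost only in the tassel. They were chosen by their measured levels: a gene model was taken when it reached at least 100 CPM (reads of the gene per 1000000 gene reads of the same library) in each of the 3 tassel libraries and stayed below 1 CPM in each of the other 30 libraries. The rule found 234 of 44146 gene models. They make up 19.7% of the 1190 gene models that reached 100 CPM in every tassel library. Because the tassel and the other tissues were compared in order to choose these genes, that contrast is given as a description and was not tested.

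The libraries come from the maize line B73, wild type and without treatment, with 3 libraries from each of 11 tissues. Every library title also carries the mark WW, which is not spelled out in the sources used here. The tassel group (PS_TAS) holds pooled parts of the tassel that carried fresh pollen, each library from 1 greenhouse plant at pollen shed. At the same stage and in the same greenhouse were sampled the blade of the leaf that formed its ligule last (PS_LF), the internode under the ear (PS_IN1), silks from within the husk (PS_SILK) and the unpollinated ear (PS_EAR), also from 1 plant per library. V2 seedlings gave the white immature leaf parts (V2_LF-I) and the green blades (V2_LF). Roots (DAS4_R) and hypocotyls (DAS4_HY) came from perlite 4 days after sowing, with 3 plants pooled per library, and field-grown seeds, pooled from 1 ear, were taken 12 (DAP12_S) and 35 days (DAP35_S) after pollination by the labels, while the methods text gives a later day for the younger ones. Growth condition and tissue cannot be told apart where both differ. Replicate 1 of PS_TAS, PS_LF, PS_IN1 and PS_EAR was harvested on 25 November and their replicates 2 and 3 on 28 November, so that within the tassel the day of replicate 1 and its plant cannot be told apart.

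The tassel is the male inflorescence of maize. Its spikelets hold anthers, in which the tapetum feeds the developing pollen and which open at pollen shed. Mature pollen of flowering plants carries a vegetative cell with a large store of mRNA for germination and tube growth, together with the sperm cells, and many of the transcripts of this store are scarce in the vegetative organs. The samples are bulk RNA of an organ, in which more cells of a type and more RNA per cell cannot be told apart. The reference table pairs none of the 44146 gene model IDs with a name, and none of the 234 is given a name or an ontology term in the study's text or in the rows of its supplements at hand. For this reason no member is given a name or a role, the pollen, anther wall and leaf markers by which the label of the tissue would have been checked could not be looked up, and no sequence is shown.

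Depth was 25.4 to 27.2 M (megareads) gene reads in the tassel libraries and 15.8 to 42.9 M over all 33. The same rule applied to each other tissue found 8 gene models for DAP35_S, 2 for DAS4_R, 1 for DAP12_S and 0 for each of the remaining 7 tissues. Among the 2284 features that are not of the Zm00001d gene model set, 0 passed the rule for the tassel.

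The 234 genes took 20.4% of all gene reads in tassel replicate 1, 14.8% in replicate 2 and 19.6% in replicate 3, with a mean of 18.3% ± 3.00 (SD, n = 3). In the other 30 libraries the same genes summed to between 4.71 and 36.5 CPM. The tassel libraries thus lay apart from all others, as the rule requires, and the plot of the summed level by library shows the gap on a log axis.

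**Figure D1:**
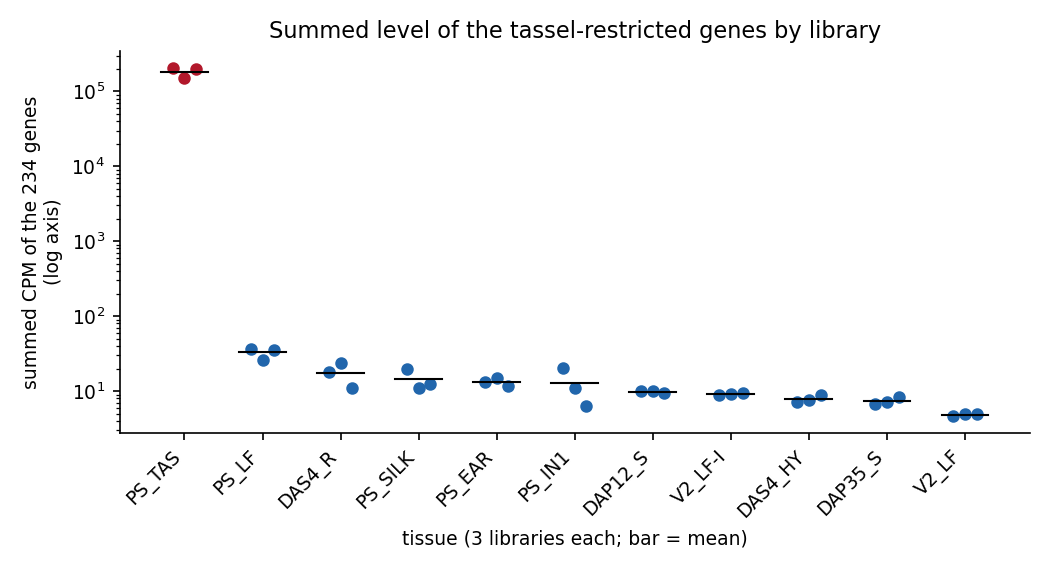
Summed CPM of the 234 genes in each library (points, log axis) with the mean of each tissue (bars). The 3 tassel libraries lie at 148384 to 204007 CPM, while the next tissue, PS_LF, lies at 26.2 to 36.5 CPM and V2_LF at 4.71 to 4.90 CPM.

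The reads were spread over many genes rather than held by a few. The 10 genes with the highest mean held 3.16% of the tassel gene reads and the first 50 held 9.71%. The mean level over the 3 tassel libraries ran from 115 to 4024 CPM with a median of 501.6 CPM. It was 1000 CPM or more for 62 genes and below 200 CPM for 34. These levels are shares of reads and were not divided by transcript length, so they rank the genes by reads and not by molecules.

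Abundant tassel genes were found at both ends of the range of breadth. Of the 1190 gene models at 100 CPM in every tassel library, the 234 restricted ones held 18.3% of the tassel reads. The 119 genes whose highest level elsewhere was between 1 and 10 CPM held 11.6%, and the 248 genes at 10 to 100 CPM elsewhere held 9.17%. The 589 genes that also reached 100 CPM in some library of another tissue held 20.6%. The restricted genes were therefore fewer than the broadly read ones by number, while the reads they took were nearly as many.

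**Figure D2:**
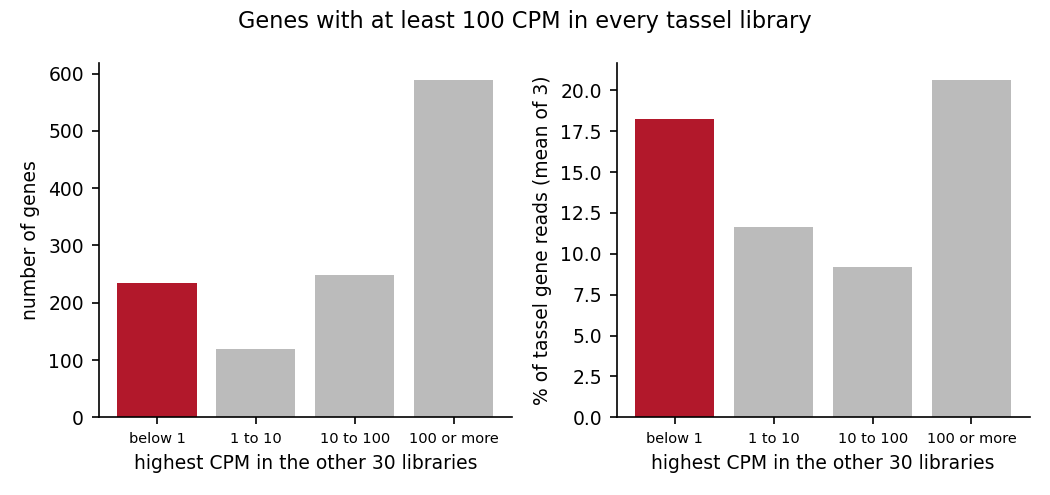
Gene models with at least 100 CPM in every tassel library, grouped by their highest CPM in the other 30 libraries: number of genes (left) and mean share of tassel gene reads (right). The restricted group (red) holds 234 genes and 18.3% of the reads, and the group at 100 CPM or more elsewhere holds 589 genes and 20.6%.

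Zm00001d025588 had the highest mean, with 4218, 3973 and 3881 CPM in tassel replicates 1, 2 and 3. Its highest level in another library was 0.946 CPM, in PS_LF replicate 1. The 3 tassel values lay close together, with a coefficient of variation (CV, the SD divided by the mean) of 4.33%.

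Zm00001d053597 had 4613, 2709 and 3966 CPM in the tassel and at most 0.535 CPM elsewhere. Zm00001d035988 had 3447, 4026 and 3175 CPM, and at most 0.974 CPM elsewhere. Replicate 2 was thus the lowest tassel library for the former gene and the highest for the latter. Zm00001d029568 had 2765, 3277 and 4316 CPM, and is the only one of the 10 whose highest value was in replicate 3. Only 2 reads of it were counted in all other libraries together, both in PS_EAR replicate 3.

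Zm00001d025287 varied little, at 3465, 3305 and 3334 CPM. Zm00001d048715 varied most among the first 10, at 4550, 1901 and 3094 CPM, a CV of 41.7%. Zm00001d010797 had 3039, 2313 and 2975 CPM, and its highest level elsewhere, 0.831 CPM, was in the roots (DAS4_R replicate 3). Apart from this gene and Zm00001d029568, the first 10 all had their highest outside level in a PS_LF library.

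The last 3 of the first 10 share an order of the replicates. Zm00001d036823 had 3205, 1818 and 2716 CPM, Zm00001d026422 had 3180, 1517 and 2767 CPM, and Zm00001d043090 had 3057, 1653 and 2502 CPM. In each of them replicate 1 was highest and replicate 2 lowest, as in Zm00001d053597, Zm00001d025287, Zm00001d048715 and Zm00001d010797. The plot of the first 30 genes shows the same order in many of them.

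**Figure D3:**
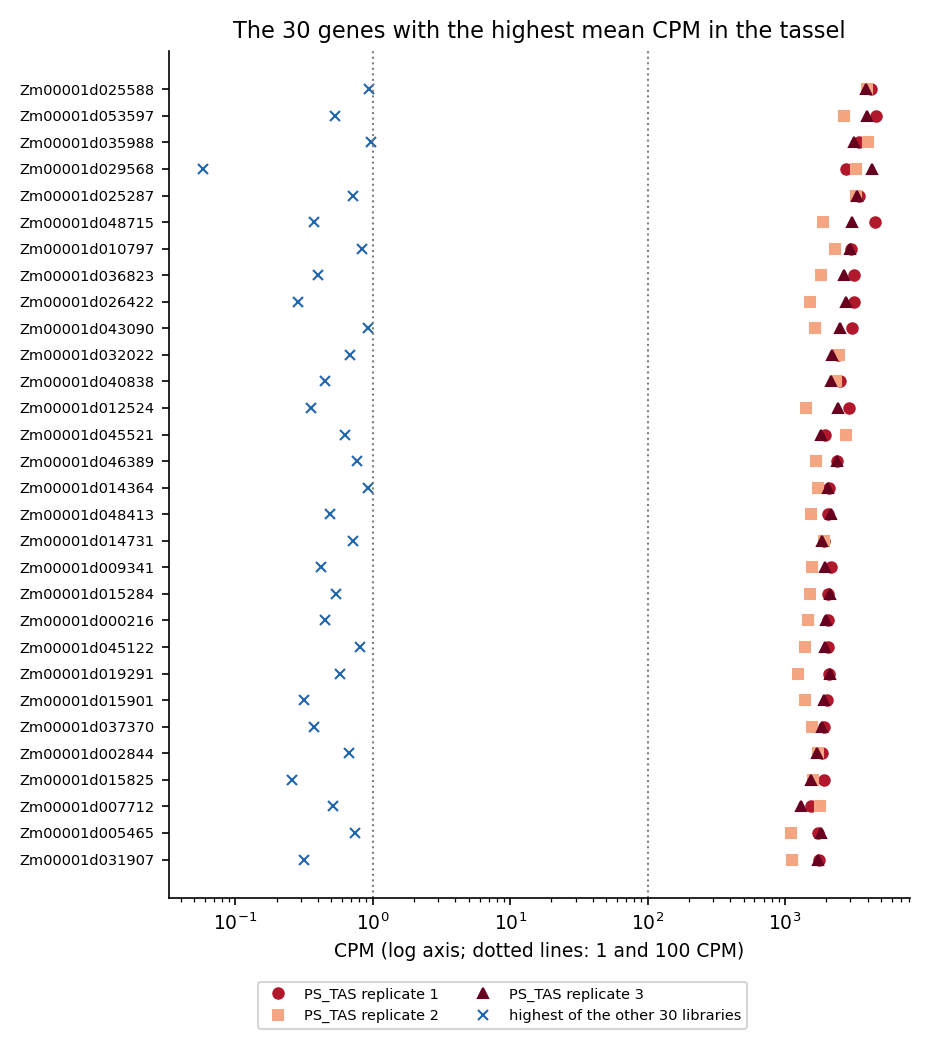
CPM (log axis) of the 30 genes with the highest mean in the tassel: the 3 tassel libraries (filled marks) and the highest of the other 30 libraries (crosses). Dotted lines mark the 1 and 100 CPM of the rule. All crosses lie below 1 CPM, and the tassel values of the first gene, Zm00001d025588, lie at 3881 to 4218 CPM.

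The edges of the rule cut through a continuous range. Just inside the tassel minimum were Zm00001d011399, Zm00001d007848 and Zm00001d037976, whose lowest tassel libraries had 100.008, 100.2 and 100.2 CPM. Just outside were Zm00001d044850, Zm00001d013288 and Zm00001d051835 with 98.7, 98.0 and 97.0 CPM. At the other edge, the outside levels of Zm00001d012772, Zm00001d038509 and Zm00001d035988 reached 0.996, 0.982 and 0.974 CPM.

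The genes left out at that edge include very abundant ones. Zm00001d017034, Zm00001d019666 and Zm00001d023858 reached 1.03, 1.09 and 1.12 CPM in DAS4_HY replicate 2, PS_IN1 replicate 1 and PS_LF replicate 1. Zm00001d023858 had at least 4332 CPM in every tassel library, more than the mean of any of the 234 genes.

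Replicate 2 of the tassel stood apart in these genes. It was the lowest of the 3 libraries for 195 of the 234 genes (83.3%), against 401 (41.9%) of the other 956 gene models that reached 100 CPM in every tassel library. The median ratio of replicate 2 to replicate 1 was 0.715 for the restricted genes and 1.02 for the others, whereas the ratio of replicate 3 to replicate 1 had medians of 0.971 and 0.984. Replicate 2 fell below 0.5 of replicate 1 in 50 restricted genes (21.4%) and in 39 others (4.08%). These shares are descriptions, since genes of 1 library are not replicates, and no test was run on them.

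The ratio depends on how the libraries are scaled. TMM, the scaling of edgeR that sets aside genes that differ much between libraries, moves the log2 ratio of replicate 2 to replicate 1 by -0.39 for every gene. On that scale the median ratio is 0.544 for the restricted genes and 0.775 for the other abundant ones. The restricted genes thus lie below the others on both scales, by construction by the same factor, while the others lie near 1 only in plain CPM.

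**Figure D4:**
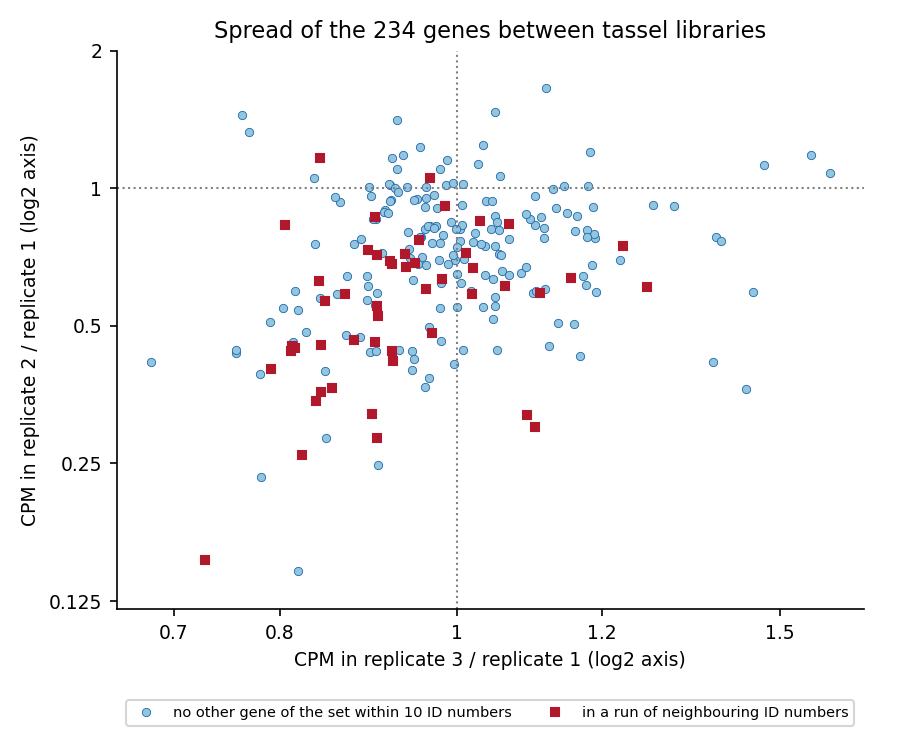
CPM in tassel replicate 2 against that in replicate 3, each divided by replicate 1 (log2 axes), for the 234 genes. Most points lie below the horizontal line at 1, with a median ratio of 0.715 for replicate 2, while the points scatter on both sides of the vertical line, with a median of 0.971 for replicate 3. Red squares are genes with another gene of the set within 10 ID numbers.

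The gap was not even over the genes. Zm00001d049840 had the highest CV, 68.9%, with 703, 108 and 512 CPM. Zm00001d046319 followed with 1731, 251 and 1417 CPM. Replicate 2 had 0.154 and 0.145 of the replicate 1 level in these genes, while replicate 3 had 0.728 and 0.819 of it.

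The next 3 by CV were Zm00001d004720 (434, 102 and 340 CPM), Zm00001d039429 (463, 168 and 666 CPM) and Zm00001d042164 (495, 123 and 448 CPM). In all of them replicate 2 was again the lowest, and in Zm00001d039429 replicate 3 was the highest.

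Other members hardly varied. Zm00001d043889 had 659, 672 and 664 CPM, a CV of 1.00%. Zm00001d012799 had 545, 554 and 537 CPM, Zm00001d019377 400.2, 410.4 and 398 CPM, Zm00001d036984 372, 360.2 and 361 CPM, and Zm00001d014731 1931, 1940 and 1858 CPM. In 4 of these 5 genes replicate 2 was the highest library.

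A small group went the other way. Replicate 2 was the highest library for 27 genes (11.5%), against 433 (45.3%) of the other abundant ones. The largest ratio to replicate 1, 1.66, belonged to Zm00001d017293, with 955, 1584 and 1068 CPM, named here after its values were seen. Replicate 1 was the highest library for 120 genes and replicate 3 for 87.

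Tassel replicates 2 and 3 were set against replicate 1, that is, 28 against 25 November, with edgeR's quasi-likelihood test in a fit over all 33 libraries. The single library of 25 November is assumed to vary like the others. Since it is also a single plant, the contrast does not test the day as such. The rule had set a minimum in each of these same libraries, so genes with a very low tassel replicate were left out before the test. It found 284 genes without tassel replicate 2, against 234 without replicate 1 and 235 without replicate 3. The counts of calls therefore hold for the genes the rule kept, as do the differences in the fits with a library left out. The test called 0 of the 234 genes at an adjusted p under 0.05. Over all 28997 genes tested, 0.0448% were called higher and 0.0793% lower on 28 November. Among the 234 genes 4 had an unadjusted p under 0.05, and DESeq2 called 0, with 0 at an unadjusted p under 0.05. The log2 difference was negative for 228 genes, with a median of -0.42, and the smallest adjusted p, that of Zm00001d004720, was 0.341. All 234 passed the filter on low counts, which their tassel levels alone are enough to meet.

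The size of the difference moved with the library left out. Without replicate 2 the median log2 difference was -0.14, with 183 genes negative. With the replicate number as a block it was -0.24, with 155 negative and 0 called. Without replicate 3 it was -0.87, a contrast of replicate 2 with replicate 1 alone, and 33 of the 234 genes (14.1%) were called lower and 0 higher, against 4.47% lower of all genes tested in that fit. Replicate 3, harvested on the same day as replicate 2, had a median of 0.971 of the replicate 1 level over the 234 genes.

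Some genes with neighbouring ID numbers were low in replicate 2 together. Of the 234 genes, 50 (21.4%) had another gene of the set within 10 ID numbers, in 18 runs. Among the 956 other abundant tassel genes 360 (37.7%) did. Neighbours were counted within each set, and a larger set has more of them by its size alone. The shares can therefore not be compared, and nothing is read from their difference. Whether neighbouring IDs are neighbouring genes was not checked here, and reads of near-identical copies could have been split between the members of a run or lost as multiply aligned. The runs named in the following were chosen after their values were seen.

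The largest run, Zm00001d017732 to Zm00001d017740, held 6 members and summed to 5219, 2337 and 4505 CPM in replicates 1, 2 and 3. In each of its members replicate 2 had 0.261 to 0.554 of the replicate 1 level. The run Zm00001d036815 to Zm00001d036823 held 5 members and the largest summed level, 8442, 4071 and 7164 CPM. Its most abundant member, Zm00001d036823, is among the first 10 of the whole set.

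The run Zm00001d049838 to Zm00001d049844 also held 5 members and had the deepest gap, with summed levels of 3583, 1150 and 3120 CPM and ratios of 0.154 to 0.460. It holds Zm00001d049840, the gene of the highest CV. Other runs lacked the gap: Zm00001d007707 and Zm00001d007712 summed to 2937, 3074 and 2668 CPM.

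Outside the tassel the genes left only traces. Over the 30 other libraries, with 814 M gene reads, a gene had a median of 31.5 reads, found in a median of 11 libraries. For 3 genes no read at all was counted there, and 16 more had 1 to 3 reads. At the other end, 29 genes had a read in at least 20 of the 30 libraries. For the 215 genes with more than 3 outside reads, the pooled tassel level (reads of the 3 libraries over their gene reads) was 601 to 221164 times the pooled outside level, with a median of 16715.

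The 3 genes without an outside read were Zm00001d049840, Zm00001d016259 and Zm00001d027808, named after their values were seen. Zm00001d016259 had 280.1, 124 and 260.4 CPM in the tassel and Zm00001d027808 had 189, 171 and 214 CPM. Set against a floor of 3 counts over the 30 libraries together, the pooled tassel levels were at least 121351-fold higher for Zm00001d049840, 60655-fold for Zm00001d016259 and 52046-fold for Zm00001d027808. Intervals and floors given here cover counting error only.

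The 5 genes with the highest level in any other library did not share a tissue. They were Zm00001d012772 (0.996 CPM in PS_SILK replicate 1), Zm00001d038509 (0.982 CPM in PS_EAR replicate 1), Zm00001d035988 (0.974 CPM in PS_LF replicate 1), Zm00001d048268 (0.947 CPM in DAP35_S replicate 3) and Zm00001d025588 (0.946 CPM in PS_LF replicate 1). The tassel means of these 5 ran from 161 CPM for Zm00001d048268 to 4024 CPM for Zm00001d025588, so the highest traces were not confined to the most abundant genes.

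Summed over the 234 genes, the traces were highest in the adult leaf. PS_LF had 36.5, 26.2 and 35.5 CPM in replicates 1, 2 and 3. The roots followed with 17.9, 24.0 and 10.97 CPM, and PS_SILK with 19.6, 11.04 and 12.6 CPM. PS_EAR had 13.3, 15.1 and 11.7 CPM and PS_IN1 20.6, 11.1 and 6.35 CPM. All 3 leaf libraries thus lay above every other library outside the tassel, while the ranges of the roots, silks, ears and internodes overlapped.

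The remaining tissues lay lower, with means of 9.79 CPM in DAP12_S, 9.15 in V2_LF-I, 7.89 in DAS4_HY, 7.43 in DAP35_S and 4.83 in V2_LF. The green blade of the seedling, at 4.71 to 4.90 CPM, had the smallest summed trace in plain CPM. On the TMM scale its mean became 9.87 CPM and the hypocotyl had the smallest, 5.995 CPM. The adult leaf had the largest on both scales, with 39.8 CPM after TMM. A PS_LF library was the highest one outside the tassel for 104 of the 234 genes, and a DAS4_R library for 25.

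In the adult leaf the traces followed the tassel level. Across the 234 genes, which share libraries and depth and are not independent, the rank correlation (Spearman) between the summed reads in the tassel and in PS_LF was 0.601. It was 0.587 for PS_SILK, 0.488 for PS_IN1, 0.282 for PS_EAR and 0.261 for DAS4_R. In the 5 other tissues it lay between -0.096 and 0.016. Genes with more tassel reads thus tended to have more reads in the leaf, the silks and the internode. No such order was seen in the seeds, the hypocotyl or the seedling leaves. There, however, 121 (DAS4_HY) to 176 (V2_LF) of the 234 genes had no read, against 23 in PS_LF. A lack of order in these tissues cannot be told from a lack of reads.

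The traces were tested between tissues outside the tassel, a contrast that the rule caps at 1 CPM but does not use. Reads are few at this level, the cap keeps out genes with larger traces, and many members met the filter on low counts only through the tassel. The share of members called is for these reasons not comparable with that of all genes, which is given beside it as background, and nothing is read from the difference. In edgeR's test of PS_EAR, PS_IN1, PS_LF and PS_SILK together against the 6 remaining tissues, 64 of the 234 genes (27.4%) were called higher and 0 lower. Of all genes tested, 29.9% were called higher and 28.3% lower. DESeq2 called 64 higher and 10 lower. At an unadjusted p under 0.05 edgeR counted 72 genes in both directions. Without replicate 1 of every tissue, which is the 25 November library in 3 of the 4 pollen-shed tissues tested, the calls fell to 39 genes.

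Taken tissue by tissue, a set of contrasts chosen after the data were seen, the adult leaf gave the most calls. PS_LF against the 6 remaining tissues gave 139 of the 234 genes as higher (59.4%) and 0 as lower, against 35.3% higher of all genes tested. PS_SILK gave 59 (25.2%, all genes 30.6%), PS_IN1 51 (21.8%, all genes 34.1%) and PS_EAR 36 (15.4%, all genes 33.0%). The limits just given hold for these counts too, and nothing is read from their order. Some calls rest on few reads. Zm00001d053257, named after its values were seen, was called with 3 reads in PS_LF and 0 in the remaining tissues. These 4 contrasts share the same 6 tissues, and the differences between them were not tested.

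Pooled levels are another measure than the test, which gives each of the 6 remaining tissues the same weight on a log scale. A gene can thus be called higher at a lower pooled level. Zm00001d004909, named after its values were seen, was called higher at 0.708 times the pooled level of the remaining tissues. For the 196 genes with more than 3 reads in PS_LF or in the 6 remaining tissues, and with an arm at 0 reads set to the floor of 3, the median level in PS_LF was 3.73 times that in the remaining tissues. Over all genes tested the same median was 0.585. PS_LF was above the remaining tissues for 149 of the 196 genes and below for 47.

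Zm00001d014731 lay far above the median of 3.73. It had 0.716, 0.558 and 0.535 CPM in the PS_LF libraries, 52 reads in all, and 10 reads in the 18 libraries of the remaining tissues. Pooled, this was a 29.5-fold higher level. Its adjusted p in edgeR's quasi-likelihood test, with the limits given above, was 2.21e-08. Zm00001d043090 had 0.917, 0.595 and 0.491 CPM in PS_LF. Its adjusted p in the same test, 6.24e-09, was the smallest of the set. Zm00001d029568, at 3453 CPM in the tassel, had no read in PS_LF at all.

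PS_LF was also set against V2_LF, the blade of the seedling. The test called 54 of the 234 genes higher (23.1%) and 2 lower, while 23.4% of all genes tested were called higher, with the same limits. Of the 157 genes with more than 3 reads in either tissue, 151 were at a higher level in PS_LF than in V2_LF and 107 had no read in V2_LF. The stage of the plant and the leaf sampled differ together here and cannot be told apart.

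Relative to the tassel, the leaf trace was of similar size in many genes. Among the 140 genes with a tassel mean of at least 400 CPM, the PS_LF level was a median of 147 ppm of the tassel level (leaf CPM per 1000000 CPM in the tassel), with quartiles of 85.1 and 219. For Zm00001d025588 it was 207 (exact Poisson 95% interval 161 to 261) and for Zm00001d035988 208 (159 to 267). Zm00001d025287 had 187 (140 to 244), so that the intervals of these 3 overlap.

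Not all genes kept to this ratio. Zm00001d050255, named after its values were seen, had the highest of the 140, 966 ppm (722 to 1267), and 19 of its reads were in V2_LF. At the other end 7 of the 140, also named after their values were seen, had no leaf read: Zm00001d029568, Zm00001d046319, Zm00001d029596, Zm00001d049844, Zm00001d017737, Zm00001d049838 and Zm00001d049840. For Zm00001d029568 the 3 counts of the floor correspond to 10.3 ppm, far under the median, whereas for Zm00001d049840 they correspond to 79.7.

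**Figure D5:**
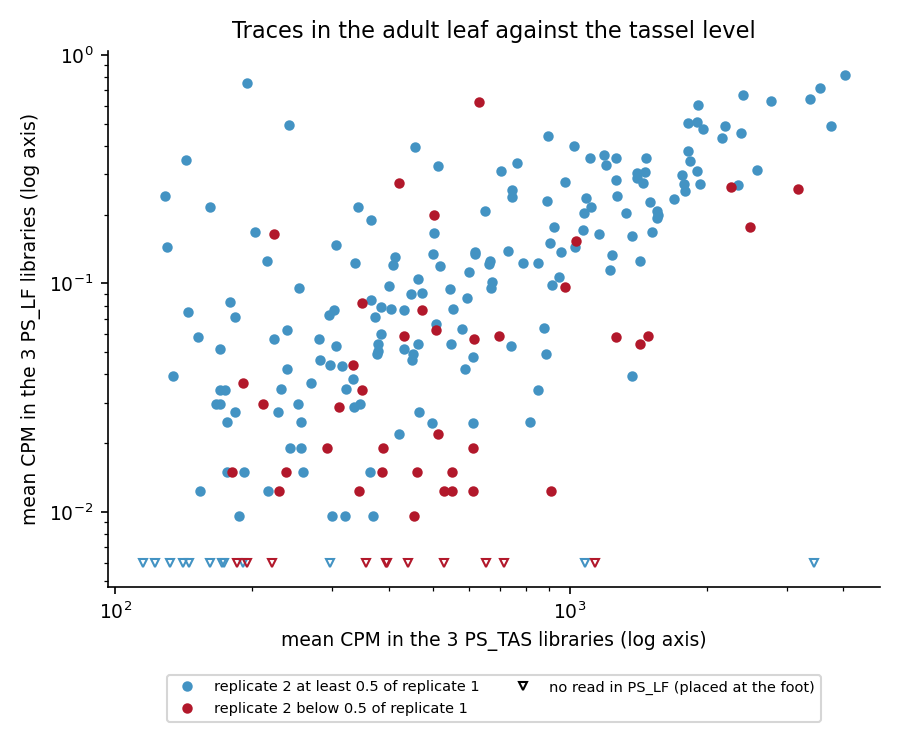
Mean CPM in the adult leaf (PS_LF) against mean CPM in the tassel (log axes) for the 234 genes, with open triangles for genes without a read in PS_LF. Genes with replicate 2 below 0.5 of replicate 1 in the tassel (red) tend to lie lower at the same tassel level, with Zm00001d050255 as the highest exception. Among genes of at least 400 CPM their median leaf level is 42.7 ppm of the tassel level, against 176 for the others (blue).

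The leaf trace and the gap in tassel replicate 2 went together. Among the 140 genes, the 30 with replicate 2 below 0.5 of replicate 1 had a median leaf trace of 42.7 ppm, and the other 110 had 176. The rank correlation between the leaf trace per tassel level and the ratio of replicate 2 to replicate 1 was 0.519, and Pearson's r was 0.302, over 140 genes that share libraries. Both measures use the same tassel counts, so part of the relation may be built in. Of all 234 genes, 17 of the 50 with the lower ratio (34.0%) and 122 of the 184 others (66.3%) were called higher in the leaf. The limits given above for the calls on traces hold here too, and nothing is read from these shares. The relation of leaf trace and gap was looked for after the data were seen, and its source was not tested.

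The calls in the leaf, which carry the limits given above, were not even over the range of tassel levels. Of the 50 genes with the highest tassel means 46 were called higher in PS_LF, with a median of 23.5 leaf reads, and of the 117 with the lowest means 45, with a median of 3 leaf reads. The median ratio of replicate 2 to replicate 1 was 0.740 in the former and 0.698 in the latter, so that the gap in replicate 2 was found at both ends of the range.

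Reads on the strand opposite to the gene model, which the rule did not count, were rare. They were a median of 0.108% of the stranded tassel reads of a gene, against 0.0851% for the other abundant tassel genes, and reached 1% in 10 of the 234 genes (4.27%) and in 19 of the 956 others (1.99%). The highest share, 6.06% (Wilson 95% interval 5.86 to 6.26%), belonged to Zm00001d013647, at 5.41, 7.56 and 5.80% in the 3 tassel libraries. Zm00001d039480 had 2.80%, Zm00001d002271 2.29%, Zm00001d035988 1.70% and Zm00001d037066 1.57%.

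For a few genes the level depends on the use of strand. In 4 of the 234, named after their values were seen, counting without strand kept under 90% of the reads counted on both strands. Without strand, a read that falls on gene models of both strands is ambiguous and is left out. The share kept was 62.7% for Zm00001d039212, 76.3% for Zm00001d039480, 76.8% for Zm00001d037066 and 0% for Zm00001d005053. With strand, Zm00001d005053 had 268, 217 and 283 CPM in the tassel.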

How the data were processed

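RNA-seq was analysed in 33 libraries of 11 tissues. The authors trimmed reads with Trimmomatic, removed ribosomal reads with sortMeRNA and aligned the rest to B73 RefGen_v4 with STAR (version not given in the sources used here). Their deposited files hold raw counts per gene, unstranded and for each strand. The reverse column, which is the sense strand of the TruSeq stranded kit, was used, and the lines that name no gene (10.3 to 20.2% of a file) were left out. Only reads on 1 place enter, so genes with close copies may be undercounted. The members and lists were chosen with earlier results of these data known.

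CPM used the plain gene total. Tests were run with edgeR 4.0.16 (R 4.3.3; TMM, filterByExpr with a minimum count of 10 and total of 15, quasi-likelihood test, Benjamini-Hochberg adjustment over 28997 genes, 1 group per tissue), with DESeq2 1.42.0 as an alternative, and were tested on simulated data first. In the simulated data the changed genes lay at higher levels than the traces, so the simulation does not cover tests at trace level. The other alternatives were no filter, the unstranded column, a replicate block, other thresholds, TMM scaling, tissue means, fewer tissues and leaving out replicates. Replicates differed by more than counting noise (chi-square per degree of freedom 8.01 to 122), and p-values measure the spread between single plants or pools. Genes were named by rule: the 10 highest means, the 5 highest and lowest CVs, the 5 highest outside levels, the 5 highest opposite-strand shares and 3 on each side of each threshold. Others are said to be chosen after their values were seen.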

Additional observations from a re-analysis of the deposited data

How the results depend on the processing

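The number of genes moved less than 1.5 times under all 12 alternatives, between 174 (at least 200 CPM in the tassel) and 317 (below 5 CPM elsewhere). It was 258 with TMM sizes, of which 227 were shared with the 234, and 220 on unstranded counts, of which 219 were shared. Leaving out a tassel replicate gave 234 to 284 genes and a share of reads of 17.2 to 20.0%.

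The count between harvest days was 0 under 6 of 7 alternatives. It ranged from 0 to 33 when a tassel replicate was left out, with 33 without replicate 3. Leaving out replicate 1 removes the only library of 25 November and could not be run. All these counts between days are of genes that the rule had chosen by their levels in the tested libraries. The count of traces called in the 4 pollen-shed tissues, 64, became 39 to 50 with a replicate number left out of every tissue and 51 without PS_LF. It was 139 for PS_LF alone and 38 for PS_EAR alone, counted in both directions.

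By the labels replicate 1 shares a harvest day in 4 tissues, as do replicates 2 and 3. Deviations from the tissue means correlated at 0.0175 on average for same-numbered and -0.0087 for other libraries. Of the same-numbered pairs 21 of 165 exceeded 0.1, and of the other pairs 18 of 330. Whether the numbers pair single libraries cannot be told from these correlations. In the 4 dated tissues the mean was 0.048 for the same number, 0.0299 for the same day with another number and -0.0501 for the other day, and 2 of 18 same-numbered pairs exceeded 0.1. With the replicate number as a block, 0 genes were called between days and 69 for the traces (68 higher, 1 lower).

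Depth limits the traces, since 23 of the 234 genes had no leaf read among 84.2 M.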
